A study of Mus musculus with 12 samples.

Results

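The comparison described here is the difference between 2 genotypes in their response to carbon tetrachloride (CCl4), measured gene by gene in isolated mouse hepatocytes. For each gene the response was the CCl4 value minus the oil value on the scale log2(normalized count + 1), and the interaction was the response in Alb-R3 minus the response in Alb-Cre. An interaction above 0 therefore means a larger increase, or a smaller decrease, in Alb-R3. All 12 libraries entered, and the 20244 genes with a normalized count of at least 1 in at least 3 libraries were tested, of 35709 gene identifiers in the table. The calculation was repeated without the library Alb-R3 CCl4 replicate 1, which left 11 libraries and 19818 tested genes.

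Each genotype, Alb-Cre or Alb-R3, was studied after oil and after CCl4, which makes 4 groups of 3 libraries. All groups were male C57BL/6J mice aged 8 to 10 weeks. Alb-Cre denotes Cre recombinase driven by the albumin promoter, which is active in hepatocytes, and served as the control. Alb-R3 mice are described as lacking Fgfr3 in hepatocytes only, so other liver cells would keep the gene. A single dose of CCl4 dissolved in olive oil, 0.4 mg for each g of body weight, was injected into the peritoneum, the other mice received the oil alone, and the labels give 48 h for both. Hepatocytes were purified by Liberase perfusion, differential centrifugation and a Percoll gradient. Whether different libraries stand for different animals is not in the labels, and the p-values therefore rest on a spread between libraries that may be partly technical.

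FGFR3 is a receptor tyrosine kinase that, on binding fibroblast growth factors, activates the RAS-ERK cascade, whose own feedback inhibitors (the dual-specificity phosphatases and the Sprouty proteins) serve as transcriptional readouts of the pathway. CCl4 is converted by cytochrome P450 2E1 into a radical that kills the hepatocytes around the central vein, after which surviving hepatocytes divide and macrophages and stellate cells take part in the repair. At the single time of 48 h, an interaction asks whether the expression change with CCl4 has a different size in the 2 genotypes. An interaction cannot separate the size of injury and repair from their timing or from the mix of cells. It subtracts a pair of differences and is less precise than either: its median standard error (SE) over genes was 0.565 with 12 libraries, against 0.400 for a single response.

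The normalized counts of a library summed to between 27215010 and 38828902. The 12 hepatocyte markers, such as albumin and transthyretin, took between 8.59% and 15.9% of each library, and none was at 0. The library Alb-R3 CCl4 replicate 1 stood apart: its share of mitochondrially encoded genes was 32.3% and that of any other library at most 12.8%, and Kupffer cell and macrophage markers took 0.0577%, against 0.0141% and 0.022% in the other libraries of its group. The results below are therefore given with and without Alb-R3 CCl4 replicate 1. Alb-Cre CCl4 replicate 2 also differed from its group. Its acute phase genes took 7.89%, against 2.51% and 2.53%, and its mitosis genes 0.0299%, against 0.0817% and 0.0823%. In Alb-R3 CCl4 replicate 1 these shares were 6.81% and 0.021%. The repeat kept Alb-Cre CCl4 replicate 2.

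Fgfr3 (chromosome 5, 33721674 to 33737068, GRCm38), the gene described as deleted, was examined first. After oil its normalized counts were 734.9, 887.6 and 988.1 in Alb-Cre, with 523.1, 650.5 and 1109 in Alb-R3. After CCl4 they were 950.9, 705.7 and 753.0 in Alb-Cre, with 477.7, 372.1 and 382.3 in Alb-R3. The genotypes overlapped after oil, where the library labelled Alb-R3 oil replicate 3 was the highest of all, and did not overlap after CCl4. The interaction was -0.71 ± 0.35 (SE, n = 3 per group; limma adjusted p = 0.702) and -0.82 ± 0.35 without Alb-R3 CCl4 replicate 1 (adjusted p = 0.637). The table has 1 value per gene and does not show which exons were removed. No member of the list of 7 FGF receptors and co-receptors passed the test, with interactions of -0.94 ± 0.67 for Fgfr1, 0.53 ± 0.38 for Fgfr2, -0.34 ± 0.40 for Fgfr4 and -0.25 ± 0.80 for the FGF21 co-receptor Klb. The sign for Klb was not stable, and it was 0.60 ± 0.47 without Alb-R3 CCl4 replicate 1.

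With all 12 libraries no gene passed the interaction test (0 of 20244 at a limma adjusted p under 0.05, 0% called in either direction), and the smallest adjusted p was 0.247. At an unadjusted p under 0.05 there were 1516 genes (7.49%), of which 885 (4.37%) had an interaction above 0 and 631 (3.12%) below 0. Without Alb-R3 CCl4 replicate 1, 3 genes passed (0.0151%), Lrit1, Fam25c and Bcl7c, all below 0. There 7.31% of genes had an unadjusted p under 0.05, 854 (4.31%) above and 595 (3%) below 0, and 1034 genes had one in both fits with the same sign. The median interaction over all genes was -0.02 with 12 libraries and -0.01 with 11.

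The responses themselves differed in how many genes passed. CCl4 changed 900 genes in Alb-Cre (4.45% of those tested), 700 up (3.46%) and 200 down (0.988%), and 3598 genes in Alb-R3 (17.8%), 2198 up (10.9%) and 1400 down (6.92%). Both genotypes shared 800 called genes, which is 88.9% of the Alb-Cre calls and 22.2% of the Alb-R3 calls, and none of the 800 had opposite signs. The other 2798 genes called in Alb-R3 were not called in Alb-Cre, but a call in only 1 genotype is no test of the difference. Of them, 886 had an interaction at an unadjusted p under 0.05, beside 7.49% of all genes, and 0 passed after adjustment. Selecting genes by these responses itself favours a large interaction, so the 886 are a description only. Without Alb-R3 CCl4 replicate 1 1431 genes were called in Alb-Cre (7.22%, with 4.93% up and 2.29% down) and 3181 in Alb-R3 (16.1%, with 9.84% up and 6.21% down), so the gap in number of calls was smaller.

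**Figure D1:**
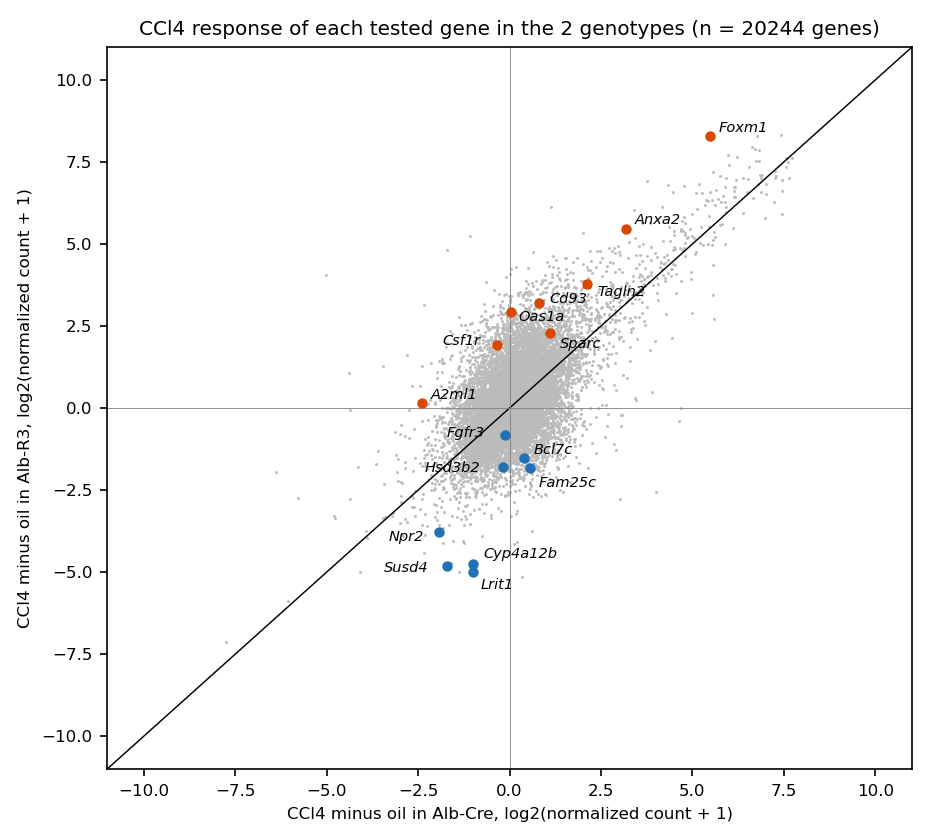
CCl4 response of each of 20244 tested genes in Alb-Cre (horizontal axis) and Alb-R3 (vertical axis), both as CCl4 minus oil in log2(normalized count + 1), with n = 3 libraries per group; the black line marks equal responses, and named genes are orange above it and blue below it. Most genes lie around the line, Anxa2 lies above it by 2.28 and Npr2 below it by 1.85.

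A gene's interaction equals its genotype difference after CCl4 minus that after oil. Among genes selected for a large interaction, opposite signs of these differences are favoured by the selection itself, so the following counts only describe them. Of the 885 genes above 0, 805 were lower in Alb-R3 after oil and higher after CCl4, and of the 631 below 0, 567 were the reverse. The difference after oil was the larger of the pair in 402 of the 885 and 270 of the 631, and without Alb-R3 CCl4 replicate 1 in 521 of 854 and 259 of 595. The genes whose genotypes did not overlap after either treatment were counted as well. In 133 genes (0.657%) all Alb-R3 libraries were below all Alb-Cre libraries after oil and above them after CCl4, in 58 (0.287%) the order was the reverse, and in 176 (0.869%) the order was the same after both treatments.

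The 3 genes that passed without Alb-R3 CCl4 replicate 1 shared a pattern in which 2 of the 3 Alb-R3 CCl4 libraries were low. Lrit1 (chromosome 14, 37054830 to 37064946) encodes a leucine-rich-repeat membrane protein known from photoreceptors. Its normalized counts after oil were 372.7, 377.2 and 331.8 in Alb-Cre, with 552.6, 515.7 and 228.2 in Alb-R3. After CCl4 they were 225.6, 140.5 and 179.5 in Alb-Cre, with 96.98, 1.465 and 7.213 in Alb-R3. The Alb-R3 CCl4 libraries lay below all others, with replicate 1 the least reduced. The interaction was -5.48 ± 0.62 without that library (limma adjusted p = 0.00766) and -3.997 ± 1.294 with it (adjusted p = 0.479). Its neighbour Lrit2 (chromosome 14, 37067929 to 37073743), of the same family, had a like order: 39.2, 0 and 5.61 in Alb-R3 CCl4 against 62.22, 60.62 and 60.67 in Alb-Cre CCl4. Its interaction was -4.94 ± 0.78 without replicate 1 and did not pass (adjusted p = 0.0836).

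Fam25c (chromosome 14, 34351881 to 34355433) had normalized counts of 743.3, 625.1 and 908.1 in Alb-Cre oil and 1169, 914.6 and 1212 in Alb-R3 oil. With CCl4 they were 710.7, 2125 and 912.6 in Alb-Cre, with 3123, 92.29 and 99.38 in Alb-R3. Here Alb-R3 CCl4 replicate 1 was the highest library of all and replicates 2 and 3 were the lowest. Accordingly the interaction was -4.06 ± 0.46 without replicate 1 (limma adjusted p = 0.00766) and -2.39 ± 1.37 with it (adjusted p = 0.799).

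Bcl7c (chromosome 7, 127661456 to 127708933), a subunit of SWI/SNF chromatin remodelling complexes, behaved likewise. Its counts were 822.1, 1081 and 1062 in Alb-Cre oil, 1401, 1147 and 1321 in Alb-R3 oil, 1030, 2126 and 956.7 in Alb-Cre CCl4, and 1474, 280.2 and 219.1 in Alb-R3 CCl4. Replicate 1 of the last group overlapped the Alb-Cre CCl4 libraries and the other pair lay below them. The interaction was -2.75 ± 0.38 without it (adjusted p = 0.0408) and -1.90 ± 0.76 with it (adjusted p = 0.575). Over 20 alternative settings of the fit without Alb-R3 CCl4 replicate 1, Lrit1 and Fam25c each passed in 17 and Bcl7c in 8, with adjusted p from 0.000678 to 0.101 for Lrit1, 0.000418 to 0.101 for Fam25c and 0.0033 to 0.201 for Bcl7c.

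Upstream sequences are shown for Lrit1 and Fam25c, which lie on the same chromosome and had the lowest adjusted p, and for Npr2, which had the smallest p with 12 libraries, so that they can be compared. They come from RefSeq on GRCm38.p6, are written 5′ to 3′ on the gene's strand, and end at the base before the start that GENCODE M21 gives the gene.
Lrit1, chr14:37054580-37054829, plus strand: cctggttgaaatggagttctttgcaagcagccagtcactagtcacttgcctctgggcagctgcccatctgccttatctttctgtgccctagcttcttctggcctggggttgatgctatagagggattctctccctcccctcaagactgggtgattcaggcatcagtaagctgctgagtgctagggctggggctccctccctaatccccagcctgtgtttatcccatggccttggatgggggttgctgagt
Fam25c, chr14:34355434-34355643, minus strand: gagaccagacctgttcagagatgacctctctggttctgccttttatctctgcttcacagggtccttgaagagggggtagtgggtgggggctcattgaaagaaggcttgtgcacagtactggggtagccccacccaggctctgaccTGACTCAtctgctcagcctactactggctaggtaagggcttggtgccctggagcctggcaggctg
Npr2, chr4:43631685-43631934, plus strand: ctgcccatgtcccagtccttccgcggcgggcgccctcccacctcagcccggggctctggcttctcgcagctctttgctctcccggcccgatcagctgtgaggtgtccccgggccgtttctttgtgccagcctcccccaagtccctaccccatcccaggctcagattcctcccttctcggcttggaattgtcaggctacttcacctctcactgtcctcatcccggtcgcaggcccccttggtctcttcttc
Capitals mark the 1 match found in a search of both strands for 6 short motifs. These were the core promoter element TATAAA, which positions transcription starts, the sequence TGACTCA bound by AP-1 (Fos and Jun proteins), and the element CCAAT bound by the trimeric factor NF-Y. The others were the palindromic E-box CACGTG recognised by Myc and its relatives, the hepatocyte nuclear factor HNF4 motif CAAAGTCCA, and the partial site GTTAAT of the hepatocyte regulator HNF1. Fam25c holds TGACTCA beginning 105 bases before its RefSeq start, and no other motif of the 6 matched in the 3 windows. GENCODE M21 begins Fam25c upstream of that RefSeq start. The 105 bases are therefore not counted from the end of the printed sequence. Of all 32851 promoter sequences, 3.81% hold TGACTCA on either strand in a window of the same 210 bases, and in 250-base windows the share was 4.46% for TGACTCA, 12.4% for TATAAA, 33.8% for CCAAT, 6.02% for the E-box, 0.384% for the HNF4 motif and 6.43% for the HNF1 site. The Npr2 window overlaps an exon of the antisense gene Gm12473. In GENCODE M21 the genes Npr2, Anxa2 and Bcl7c each overlap a gene on the other strand, and since no source used here says that the counting used strand, their reads and those of the partner cannot be told apart. A match is a run of letters in the reference and was not measured as a bound site.

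**Figure D2:**
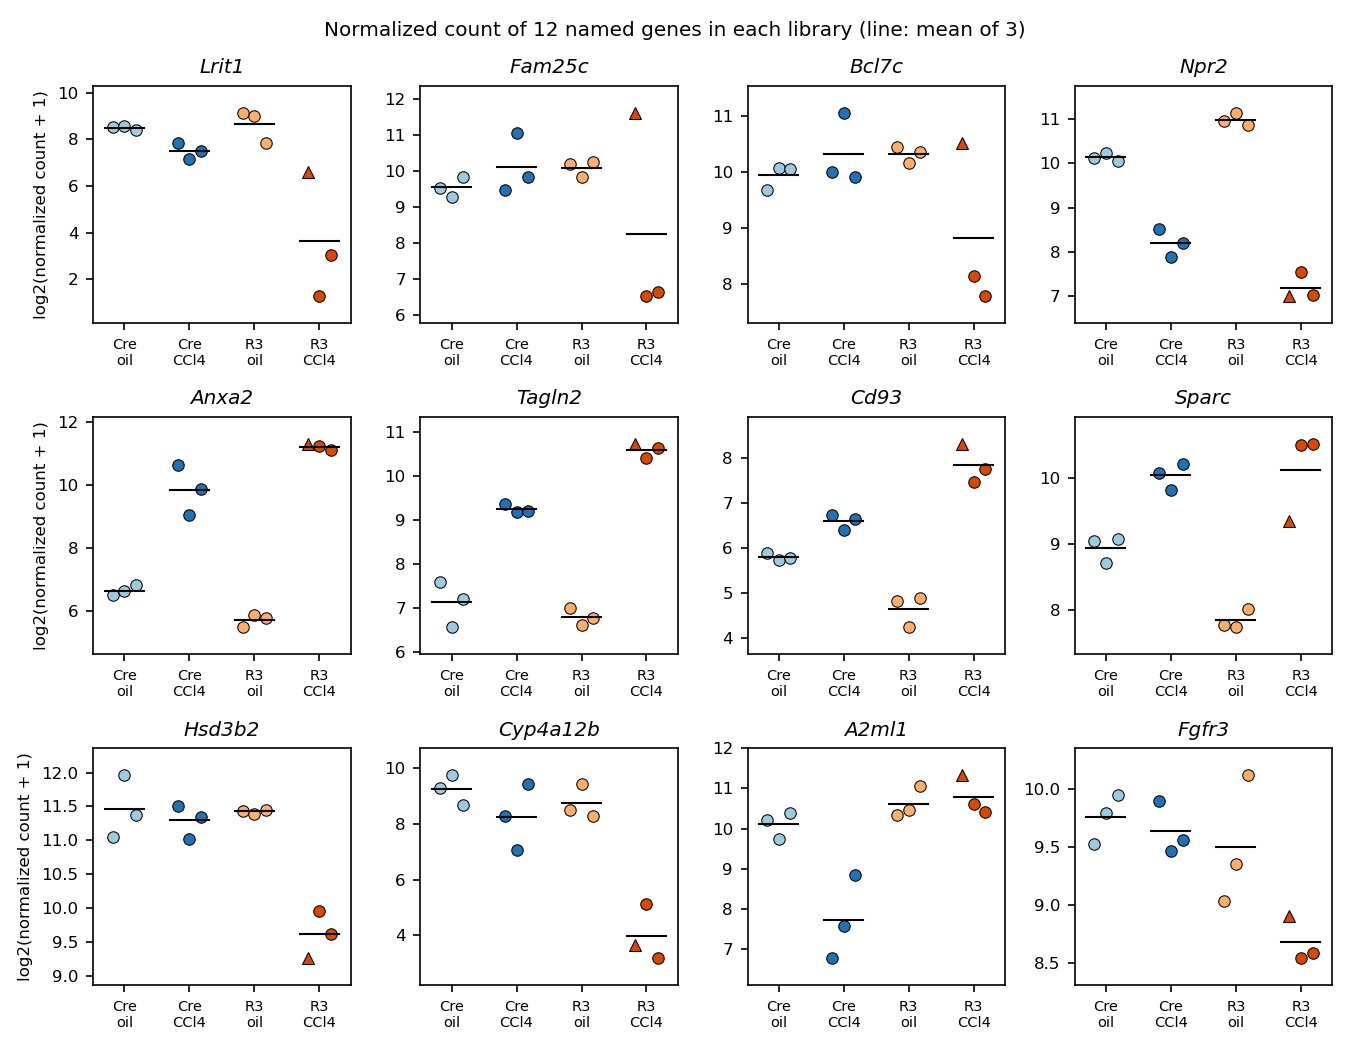
Normalized counts of 12 named genes as log2(normalized count + 1) in each library, by group, with a line at the mean of 3 libraries; the triangle is Alb-R3 CCl4 replicate 1. In the Fam25c and Bcl7c panels the triangle lies far above the other Alb-R3 CCl4 libraries, whereas for Npr2, Anxa2 and Tagln2 the 3 lie together.

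Among the genes of smallest p with all 12 libraries, Npr2 (chromosome 4, 43631935 to 43651244), the receptor for C-type natriuretic peptide, came first. Its normalized counts after oil were 1110, 1208 and 1054 in Alb-Cre, with 1998, 2236 and 1854 in Alb-R3. After CCl4 they were 364.6, 233.3 and 292.6 in Alb-Cre, with 127.9, 184.6 and 129.9 in Alb-R3. The genotypes did not overlap after either treatment, and their order was reversed. Npr2 fell in both genotypes, by 1.94 in Alb-Cre (limma adjusted p = 4.71e-05) and by 3.79 in Alb-R3 (adjusted p = 3.44e-07). The interaction was -1.85 ± 0.27 (adjusted p = 0.247), -1.76 ± 0.27 without Alb-R3 CCl4 replicate 1 (adjusted p = 0.0836), and between -2.02 and -1.69 over 21 alternative settings.

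Hsd3b2, of the 3beta-hydroxysteroid dehydrogenase family, had a different course, in which the genotypes overlapped after oil. Its counts after oil were 2110, 3979 and 2658 in Alb-Cre, with 2764, 2686 and 2805 in Alb-R3, and after CCl4 2906, 2085 and 2607 in Alb-Cre, with 617.4, 1000 and 784.5 in Alb-R3. All 3 Alb-R3 CCl4 libraries lay below the other 9. The gene fell in Alb-R3 by 1.81 (limma adjusted p = 0.000194), was not called in Alb-Cre (-0.17, adjusted p = 0.799), and after CCl4 lay 1.67 below Alb-Cre (difference -1.67, adjusted p = 0.00865), but its interaction, -1.64 ± 0.33, did not pass (adjusted p = 0.364). The others of smallest p below 0 included Notum, which removes the lipid from Wnt proteins (-1.27), the NADPH oxidase Nox4 (-1.67), the ADP-ribose hydrolase Macrod1 (-1.24) and the complement regulator Susd4 (-3.08). Each of these 4 had an adjusted p of 0.364.

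Above 0, the annexin Anxa2 (chromosome 9, 69453620 to 69491795), a membrane-binding protein, was among the genes of smallest p. After oil its counts were 91.34, 98.19 and 112.2 in Alb-Cre, with 44.86, 57.8 and 54.4 in Alb-R3. After CCl4 they were 1578, 531.9 and 934.2 in Alb-Cre, with 2486, 2381 and 2194 in Alb-R3. The Alb-R3 libraries were the lowest after oil and the highest after CCl4, with no overlap. Anxa2 rose in both genotypes, by 3.19 in Alb-Cre and 5.47 in Alb-R3 (limma adjusted p = 2.89e-05 and 3.44e-07), and the interaction was 2.28 ± 0.42 (adjusted p = 0.364) or 2.24 ± 0.44 without replicate 1 of Alb-R3 CCl4 (adjusted p = 0.23).

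The actin-binding protein Tagln2 gave 656, 576.7 and 588.1 in Alb-Cre CCl4 and 1675, 1356 and 1590 in Alb-R3 CCl4, from 191.7, 94.33 and 147.3 and from 127.6, 97.54 and 108.7 after oil. After CCl4 Alb-R3 exceeded Alb-Cre by 1.34 (limma adjusted p = 0.0326), the groups overlapped after oil, and the interaction was 1.66 ± 0.32 (adjusted p = 0.364). S100a11, a calcium-binding partner of annexins, had an interaction of 2.004 ± 0.425 and rose by 2.86 in Alb-Cre and 4.87 in Alb-R3. In the list of tubulins, annexins and S100 proteins 5 of 22 members had an unadjusted p under 0.05 above 0 (4.37% of all genes did) and none below, with a median interaction of 0.62, and 0.53 without Alb-R3 CCl4 replicate 1. CCl4 raised 8 of the 22 in Alb-Cre and 15 in Alb-R3, beside 3.46% and 10.9% of all genes.

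The others of smallest p above 0 included Cd93, a surface glycoprotein of endothelial and myeloid cells. Its counts were 58.55, 52.11 and 53.8 in Alb-Cre oil, 27.43, 18.06 and 28.46 in Alb-R3 oil, 105.4, 82.95 and 99.57 in Alb-Cre CCl4 and 314.8, 175.9 and 215.2 in Alb-R3 CCl4. Again the genotypes did not overlap after either treatment and changed order. Its interaction was 2.40 ± 0.40 (limma adjusted p = 0.364). The fatty acid carrier Fabp4, found in adipocytes, endothelium and macrophages, had 2.40 ± 0.48, the bridging protein for apoptotic cells Mfge8 1.64 ± 0.34, the heparan sulphate proteoglycan Sdc3 1.88 ± 0.37, the interferon-inducible Ifi27l2b 1.60 ± 0.32, the membrane skeleton protein Epb41l2 1.46 ± 0.29 and Afap1l2 2.87 ± 0.60. Each of these 6 had an adjusted p of 0.364.

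Without Alb-R3 CCl4 replicate 1 the order of the genes above 0 changed. Sparc, a collagen-binding matricellular protein, had 526, 417.1 and 539.4 in Alb-Cre oil, 217.8, 213.1 and 256.6 in Alb-R3 oil, 1086, 909.3 and 1191 in Alb-Cre CCl4, and 653.2, 1452 and 1466 in Alb-R3 CCl4. The first of the last 3 values lay below Alb-Cre CCl4 and the other pair above it. The interaction went from 1.18 ± 0.38 (limma adjusted p = 0.472) to 1.57 ± 0.23 without that library (adjusted p = 0.0691). In the 11 libraries the water channel Aqp1 (1.54), the proteoglycan Dcn (1.59), the pyruvate kinase Pkm (2.01), the Golgi protein Golm1 (2.33), the sulphonylurea receptor subunit Abcc9 (1.92), Igfbp7 (1.57) and the myeloid secreted protein Wfdc17 (2.41) followed, none past the threshold (adjusted p from 0.193 to 0.23).

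The lists of marker genes of liver cells other than hepatocytes were then examined, and all had a median interaction above 0 with 12 libraries. Those not detailed below had 2.16 for monocytes and neutrophils, 1.39 for dendritic cells, 1.29 for cholangiocytes and 1.27 for T and NK cells. Erythroid cells had 0.73, and B and plasma cells 0.55. Without Alb-R3 CCl4 replicate 1 the medians were 0.61, 1.11, 1.01, 1.41, -0.72 and 0.58 in the same order. With the deposited FPKM values of all 12 libraries the median was -0.73 for T and NK cells and 0.32 for cholangiocytes. The other marker lists of cells other than hepatocytes stayed above 0 there. Some of these markers were at 0 in all libraries of a group. Fewer cells of a type and less RNA per cell cannot be told apart in such bulk libraries. Of 16 Kupffer cell and macrophage markers, all 16 had an interaction above 0, and 15 had an unadjusted p under 0.05 above 0, where 4.37% of all genes did. Their median interaction was 2.40, with a range from 1.04 to 3.44. CCl4 raised all 16 in Alb-R3 (10.9% of all genes) and none in Alb-Cre (3.46%), at median responses of 2.32 and -0.12, and 0 of 16 passed the interaction test. Without Alb-R3 CCl4 replicate 1 the median interaction was 1.71, 14 had an unadjusted p under 0.05 above 0 (4.31% of all genes), and CCl4 raised 12 in Alb-R3 (9.84%) and 1 in Alb-Cre (4.93%). Alb-R3 was lower after oil and higher after CCl4 without overlap in 6 of the 16, beside 0.657% of all genes.

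The summed share of these 16 markers was 0.0066% to 0.0118% in Alb-Cre oil, 0.00451% to 0.00639% in Alb-R3 oil, 0.00941% to 0.0101% in Alb-Cre CCl4 and 0.0141% to 0.0577% in Alb-R3 CCl4, and no marker was at 0 in all libraries of a group. Csf1r, the receptor for macrophage colony-stimulating factor, had 295, 150.7 and 220.8 in Alb-Cre oil, 86.45, 108.8 and 112.3 in Alb-R3 oil, 177.9, 138.4 and 191.2 in Alb-Cre CCl4 and 735.6, 211 and 366.3 in Alb-R3 CCl4. Alb-R3 lay below Alb-Cre after oil and above it after CCl4, with replicate 1 the highest. Its interaction was 2.26 ± 0.53, or 1.79 ± 0.41 without that library (limma adjusted p = 0.364 and 0.23). The complement component C1qb (2.59 ± 0.71) and the complement receptor Vsig4 (2.47 ± 0.60) had the same order of groups in their means.

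**Figure D3:**
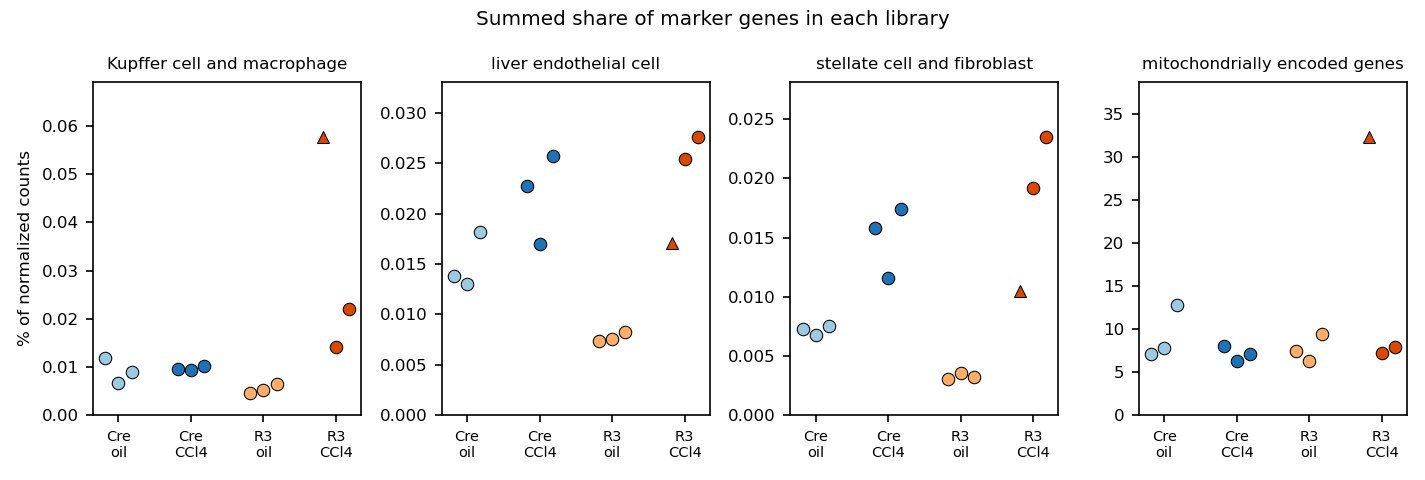
Share of a library's normalized counts, in %, taken by 16 Kupffer cell and macrophage markers, 16 liver endothelial markers, 18 stellate cell and fibroblast markers and 13 mitochondrially encoded genes, with 1 point per library and the triangle for Alb-R3 CCl4 replicate 1. In the Kupffer, endothelial and stellate panels the 3 Alb-R3 oil libraries lie below the Alb-Cre oil libraries. The triangle is at the top of the Kupffer and mitochondrial panels.

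Liver endothelial markers shared the sign and the lower level in Alb-R3 after oil, but not the difference after CCl4. All 16 were above 0, with 10 at an unadjusted p under 0.05 (4.37% of all genes above 0) and a median interaction of 1.17. These were 13 (4.31% of all genes) and 1.26 without Alb-R3 CCl4 replicate 1. After CCl4 the genotypes were close, with a median difference of 0.04, while after oil Alb-R3 was lower by a median of 1.05. For the Kupffer cell and macrophage markers the median difference, Alb-R3 minus Alb-Cre, was 1.39 after CCl4 and -0.98 after oil. The endothelial values follow. The summed share of the endothelial markers was 0.013% to 0.0182% in Alb-Cre oil and 0.00733% to 0.00828% in Alb-R3 oil. With CCl4 it was 0.017% to 0.0257% in Alb-Cre and 0.0171% to 0.0276% in Alb-R3, with no marker at 0 throughout a group. Fcgr2b, the inhibitory IgG receptor of sinusoidal endothelium, had 549.2, 637.2 and 760.6 in Alb-Cre oil, 325, 277.8 and 375.4 in Alb-R3 oil, 729.5, 587.3 and 866.5 in Alb-Cre CCl4 and 690.9, 856.5 and 903.8 in Alb-R3 CCl4. The genotypes were apart after oil and overlapped after CCl4. The hyaluronan receptor Lyve1 had an interaction of 1.84 ± 0.48 and Fcgr2b 1.16 ± 0.27 (limma adjusted p = 0.364 for both).

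Stellate cell and fibroblast markers resembled the endothelial ones. Of 18, 17 were above 0 and 7 had an unadjusted p under 0.05 (4.37% of all genes above 0), at a median of 1.10. The median was 1.68 and 15 had one (4.31% of all genes) without Alb-R3 CCl4 replicate 1. Alb-R3 was lower after oil by a median of 1.11 and the median difference after CCl4 was 0.18. The summed share was 0.0068% to 0.00756% in Alb-Cre oil, 0.00301% to 0.00352% in Alb-R3 oil, 0.0116% to 0.0174% in Alb-Cre CCl4 and 0.0105% to 0.0235% in Alb-R3 CCl4, with Acta2 at 0 in all Alb-Cre oil libraries. The intermediate filament gene Vim had 2.38 ± 0.63 (limma adjusted p = 0.364). How far the lower shares of these cell types in Alb-R3 oil bear on other interactions was not tested.

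**Figure D4:**
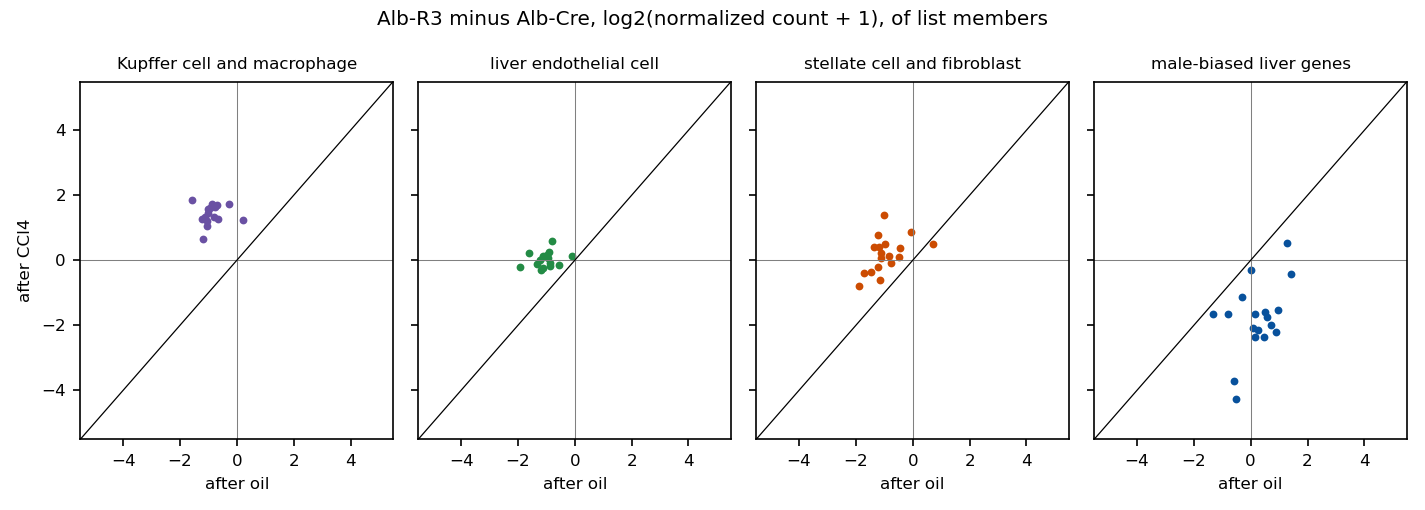
Difference Alb-R3 minus Alb-Cre in log2(normalized count + 1) after oil (horizontal axis) and after CCl4 (vertical axis), for the tested members of 4 gene lists, with 1 point per gene; the black line marks equal differences, and the interaction is the vertical distance from it. All but 1 of the Kupffer markers lie in the upper left quadrant, endothelial markers to the left near 0 after CCl4, and male-biased genes below the line.

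Genes expressed more in male than in female liver, which depend on the pulses of growth hormone secretion of males, lay on the other side of 0. All 18 tested genes of that list had an interaction below 0, with a median of -2.25 and a range from -3.76 to -0.29. Of these, 11 had an unadjusted p under 0.05 below 0 (3.12% of all genes did), and 0 passed after adjustment. Without Alb-R3 CCl4 replicate 1 the median was -1.72, 1 of the 18 was above 0 and 8 had one (3% of all genes below 0). CCl4 lowered 13 of the 18 in Alb-R3 (6.92% of all genes) and none in Alb-Cre (0.988%), at median responses of -2.33 and -0.41. Without that library it lowered 11 in Alb-R3 (6.21% of all genes) and 2 in Alb-Cre (2.29%). With 12 libraries and after oil the genotypes differed by a median of 0.20. The list shares genes with the cytochrome P450, bile acid, plasma protein, periportal and major urinary protein lists. The 22 major urinary protein genes had a median interaction of -0.27, with 9 above 0. Without Alb-R3 CCl4 replicate 1 it was 0.19, with 12 above 0. On the same side of 0 as the male-biased list but smaller in size, the 33 plasma protein genes had a median interaction of -0.40, with 32 below 0. The 12 hepatocyte markers had -0.29, with 11 below 0. Without Alb-R3 CCl4 replicate 1 these medians were -0.30 and -0.08, with 30 and 6 below 0.

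Cyp4a12b, a male-biased fatty acid hydroxylase, had 628.5, 860.3 and 410.8 in Alb-Cre oil, 360, 686 and 313.8 in Alb-R3 oil, 308.4, 132.4 and 689.1 in Alb-Cre CCl4 and 11.56, 33.69 and 8.12 in Alb-R3 CCl4. The last 3 values were the lowest of the 12. It fell in Alb-R3 by 4.75 (limma adjusted p = 0.000135) and its difference from Alb-Cre after CCl4 was -4.27 (adjusted p = 0.00827), with an interaction of -3.76 ± 0.82 that did not pass (adjusted p = 0.364). Reads of Cyp4a12b and its near-identical copy Cyp4a12a could be divided between them in either way, so its value is uncertain.

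Cyp2d9, a male-biased steroid hydroxylase, had 33340, 46200 and 37430 in Alb-Cre oil, 49010, 58370 and 58240 in Alb-R3 oil, 33730, 26200 and 36610 in Alb-Cre CCl4 and 7861, 18580 and 8356 in Alb-R3 CCl4. Alb-R3 was above Alb-Cre after oil and below it after CCl4, without overlap. The interaction was -2.09 ± 0.45 (limma adjusted p = 0.364). The oxysterol hydroxylase Cyp7b1 had -2.18 ± 0.66 and the complement component C6 -2.31 ± 0.75, neither past the threshold (adjusted p = 0.447 and 0.479).

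**Figure D5:**
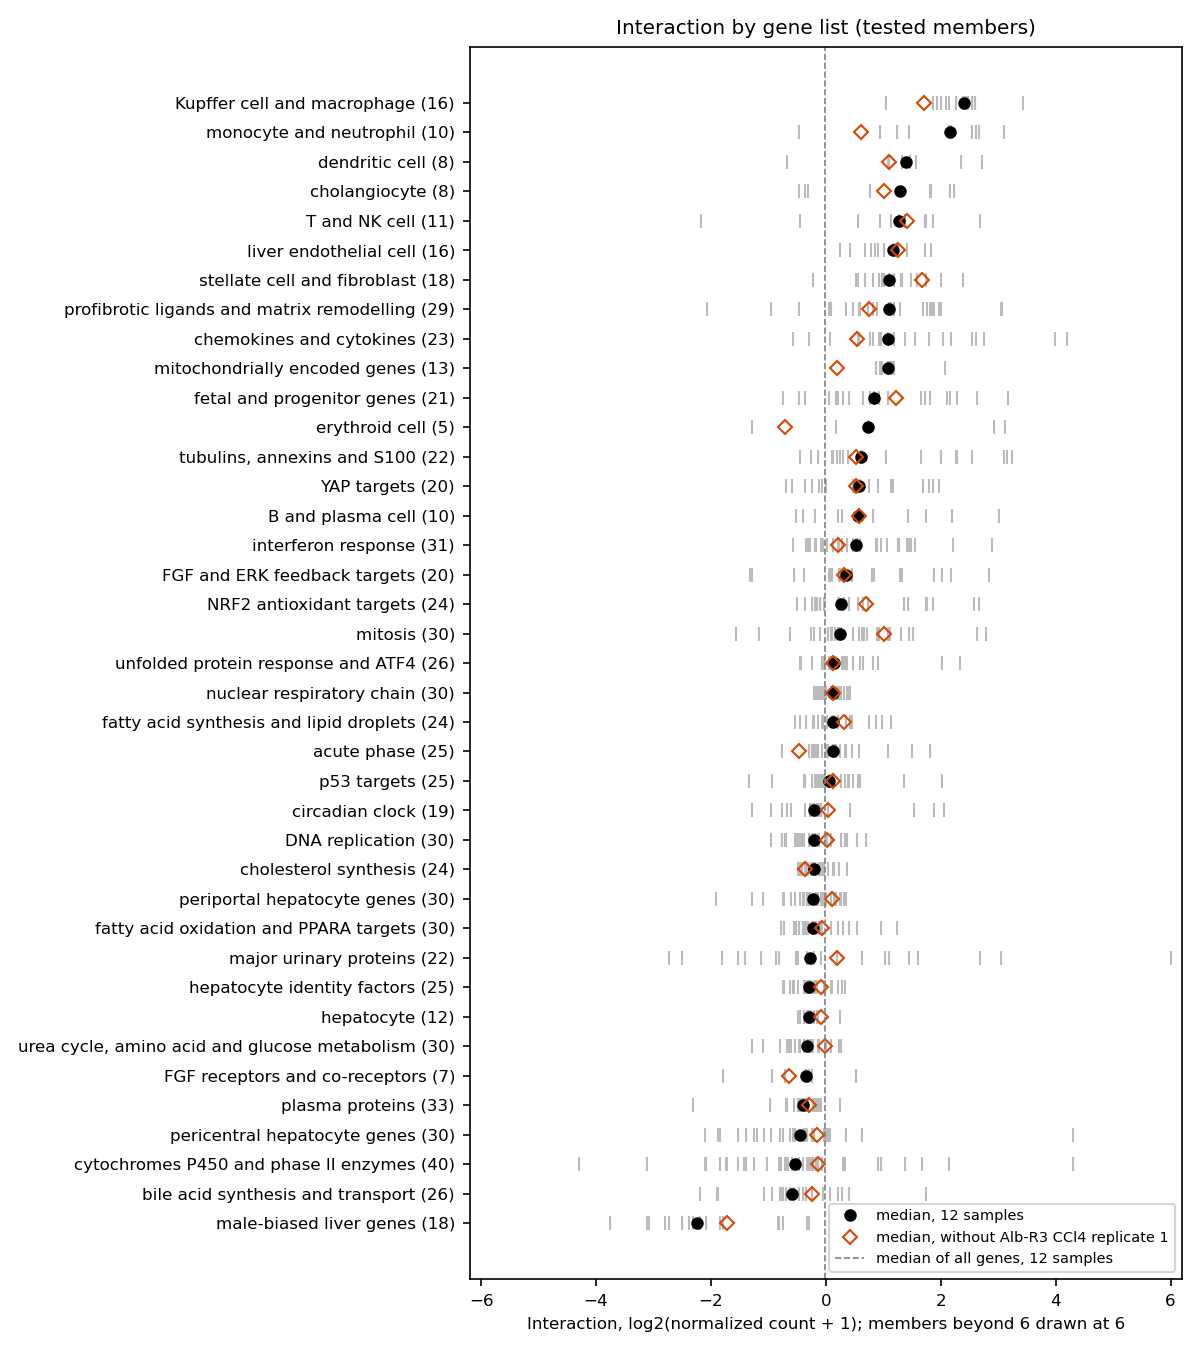
Interaction in log2(normalized count + 1) for 39 gene lists, ordered by their median with 12 libraries (filled circles) beside the median without Alb-R3 CCl4 replicate 1 (open diamonds); grey ticks are tested members, whose number is in brackets, and the dashed line is the median of all genes. Kupffer markers are at the top with 2.40 and male-biased genes at the bottom with -2.25, and the mitochondrially encoded genes go from 1.08 to 0.20 without that library.

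Feedback targets of FGF and ERK signalling had a median interaction of 0.35, with 16 of 20 above 0, 6 at an unadjusted p under 0.05 above 0 (4.37% of all genes) and none below. CCl4 raised 5 of them in Alb-Cre (3.46% of all genes) and 12 in Alb-R3 (10.9%), and no interaction passed. The list's median difference, Alb-R3 minus Alb-Cre, was -0.096 after oil and 0.66 after CCl4. Its summed share after oil was 0.0164% to 0.0305% in Alb-Cre and higher, 0.0348% to 0.0467%, in Alb-R3. After CCl4 it was 0.044% to 0.0512% in Alb-Cre and 0.053% to 0.0745% in Alb-R3. Single members could differ from this. The ERK phosphatase Dusp4 had 47.24, 25.28 and 16.71 in Alb-Cre oil, 12.04, 10.2 and 9.461 in Alb-R3 oil, 25.28, 28.59 and 46.54 in Alb-Cre CCl4 and 62.93, 41.75 and 60.11 in Alb-R3 CCl4. It was lower in Alb-R3 after oil without overlap, and overlapped after CCl4. Its interaction was 2.02 ± 0.59. Dusp6, another ERK phosphatase, had 0.82 ± 0.31, with 1762, 2452 and 2926 in Alb-R3 CCl4 against 1373, 1605 and 1169 in Alb-Cre CCl4. The early response gene Ier3 had 2.84 ± 0.71, and the limma adjusted p of the 3 ran from 0.364 to 0.554.

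Genes of cell division rose in both genotypes, and their interactions depended on the library that stood apart. CCl4 raised all 30 mitosis genes in each genotype, beside 3.46% of all genes in Alb-Cre and 10.9% in Alb-R3. Their median responses were 6.57 in Alb-Cre and 6.81 in Alb-R3. The median interaction was 0.25 with 12 libraries, where 2 of 30 had an unadjusted p under 0.05 above 0 (4.37% of all genes). Without Alb-R3 CCl4 replicate 1 the median was 1.02, and 6 of 30 had one above 0 (4.31% of all genes). The mitotic transcription factor Foxm1 had 8.399, 6.805 and 17.9 in Alb-Cre oil, 2.189, 0 and 1.183 in Alb-R3 oil, 591.1, 358 and 589.3 in Alb-Cre CCl4 and 294, 733.2 and 956.1 in Alb-R3 CCl4. Its interaction of 2.79 ± 0.75 arose mainly after oil, where Alb-R3 was lower without overlap by 2.55, since after CCl4 the groups overlapped. Those oil values were low, and the interaction of Foxm1 ran from 1.54 to 4.18 over 21 alternative settings. The mitotic kinase Cdk1 had 1.11 ± 0.65 and the mitotic kinesin Kif23 2.63 ± 1.13. DNA replication genes had no member of 30 at an unadjusted p under 0.05 and a median of -0.21, which was 0.02 without that library. In the list of 25 p53 targets 1 had one above 0, near the share of all genes (4.37%), and the median was 0.05.

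The inflammatory and repair lists are given next, where 4.37% of all genes had an unadjusted p under 0.05 above 0 and 3.12% below. Chemokines and cytokines had a median interaction of 1.09 (6 of 23 at such a p above 0), which was 0.53 without Alb-R3 CCl4 replicate 1, and the interleukin Il1a had 2.55 ± 0.64. For profibrotic ligands and matrix remodelling genes the median was 1.10 and then 0.75, with 6 of 29 above 0 and 1 below, and the protease inhibitor Timp2 had 2.01 ± 0.54. Fetal and progenitor genes had 0.84 and then 1.22, with 5 of 21, among them Prom1 at 3.17 ± 1.02. The interferon list had 0.53 and then 0.21, with 4 of 31, and its gene of smallest p, the antiviral synthetase Oas1a, had 2.89 ± 0.69. The acute phase list had 0.12 and then -0.46, with 1 of 25 above 0 at such a p. Macrophages and stellate cells express many of these genes, and the part of the marker shares above in them was not tested.

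Among the stress lists, NRF2 antioxidant targets had a median of 0.27, with 4 of 24 at an unadjusted p under 0.05 above 0 (4.37% of all genes), and 0.70 with 8 (4.31%) without Alb-R3 CCl4 replicate 1. Genes of the unfolded protein response and ATF4 had 0.15, with 2 of 26, and 0.13 with 2 without that library. The first enzyme of the pentose phosphate pathway, G6pdx, had 170.1, 88.07 and 179.5 in Alb-Cre CCl4 and 296.1, 271 and 627.5 in Alb-R3 CCl4, without overlap, and an interaction of 1.86 ± 0.47. Haem oxygenase Hmox1 had 1.35 ± 0.38. Asparagine synthetase, Asns, had 417.8, 236.2 and 192.1 in Alb-Cre oil, 18.6, 45.33 and 20.1 in Alb-R3 oil, 626.1, 525 and 330.8 in Alb-Cre CCl4 and 301.2, 142.8 and 320.6 in Alb-R3 CCl4. It was lower in Alb-R3 after both treatments without overlap, by 3.32 after oil (limma adjusted p = 0.00265) and by 0.99 after CCl4 (adjusted p = 0.586), and its interaction was 2.33 ± 0.59 (adjusted p = 0.364).

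For the metabolic lists of hepatocytes, the median with all libraries is followed by that without Alb-R3 CCl4 replicate 1, and 3.12% of all genes had an unadjusted p under 0.05 below 0 and 4.37% above with all libraries. The medians were -0.53 and then -0.14 for cytochromes P450 and phase II enzymes (5 of 40 at an unadjusted p under 0.05 below 0, 1 above), -0.59 and -0.24 for bile acid genes (3 of 26 below, 1 above), -0.46 and -0.15 for pericentral genes (3 of 30 below, 1 above) and -0.33 and -0.01 for the urea cycle with amino acid and glucose metabolism (0 of 30). They were -0.21 and -0.36 for cholesterol synthesis, 0.12 and 0.31 for fatty acid synthesis and lipid droplets, and -0.22 and -0.07 for fatty acid oxidation, with no member of these 3 lists at such a p with all libraries. In these lists the bile acid enzyme Cyp27a1 had -1.08 ± 0.32 and the vasopressin receptor Avpr1a -0.79 ± 0.22. Avpr1a had 663.5, 884.7 and 667.1 in Alb-Cre oil, 1112, 1353 and 1140 in Alb-R3 oil, 674.7, 756 and 632.5 in Alb-Cre CCl4 and 709.8, 626.3 and 608.3 in Alb-R3 CCl4. It was higher in Alb-R3 after oil without overlap and the groups overlapped after CCl4.

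A pair of genes fell with CCl4 in Alb-Cre and were near their oil level in Alb-R3. The pericentral coumarin hydroxylase Cyp2a5 had 16690, 12050 and 12180 in Alb-Cre oil, 6525, 9212 and 11020 in Alb-R3 oil, 926.1, 63.39 and 4692 in Alb-Cre CCl4 and 3304, 9061 and 19670 in Alb-R3 CCl4. It fell by 4.36 in Alb-Cre (limma adjusted p = 0.0382), the CCl4 groups overlapped, and its interaction was 4.31 ± 1.55 (adjusted p = 0.535). The protease inhibitor A2ml1, chosen after its values were seen, had 1185, 851.7 and 1334 in Alb-Cre oil, 1299, 1419 and 2129 in Alb-R3 oil, 108.9, 187.9 and 458.9 in Alb-Cre CCl4 and 2569, 1552 and 1363 in Alb-R3 CCl4. The 3 Alb-Cre CCl4 libraries were the lowest of the 12. It fell in Alb-Cre by 2.38 (adjusted p = 0.00397), was not called in Alb-R3 (0.16, adjusted p = 0.841), had a genotype difference of 3.05 after CCl4 (adjusted p = 0.00827), and had an interaction of 2.54 ± 0.59 (adjusted p = 0.364).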

How the data were processed

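RNA-seq libraries of isolated hepatocytes, 3 in each of 4 groups taken from the sample titles, were compared. The deposited table gives, per the file headers, a normalized count (a signal that is not a whole-read count) and an FPKM value for each gene and library. Kallisto 0.44.0, edgeR and the build GRCm38.p6 are listed, with no roles, in the submitters' processing notes. No label or header used here says how the authors scaled the normalized count.

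Normalized counts were analysed as log2(value + 1) in R 4.3.3 by limma 3.58.1, using its mean-variance trend, 4 group coefficients and 8 residual degrees of freedom (7 with 11 libraries). P-values were adjusted by Benjamini-Hochberg over all tested genes, with a threshold of 0.05. Changes on this scale understate those of low genes. The procedure was tested on simulated data with independent noise of the same spread in all libraries for a gene. That simulation therefore held no library that stood apart like Alb-R3 CCl4 replicate 1.

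Members and the 39 gene lists were chosen with earlier results of these data known, and lists are described, not tested. Named genes were the FGF receptors and Klb, the genes past the threshold or of smallest p (10 per direction) in each fit, with predicted models, pseudogenes and genes with a mean under 5 in each group left out, and the 2 members of smallest p of each list in each fit. Not each of these is printed. The deviations of same-numbered libraries correlated between -0.186 and 0.196 over 18 pairs, 3 of them over 0.1, so the numbers were not taken to pair the libraries. Gene positions come from GENCODE M21 (GRCm38). Alternatives were quantile normalization, no trend, other filters, pseudocounts of 0.1 and 5, the FPKM columns, limma's library weights, a replicate block, a threshold of 0.1 and leaving out each library.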

Additional observations from a re-analysis of the deposited data

Results flagged for a closer look

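The genotypes differed in their CCl4 response, by the test of the difference itself, for 3 genes without the library Alb-R3 CCl4 replicate 1. The interaction was -5.48 for Lrit1, -4.06 for Fam25c and -2.75 for Bcl7c, each with limma's adjusted p under the threshold and each lower in both remaining Alb-R3 CCl4 libraries than in every other library of that fit. With all 12 libraries none of the 3 passed (adjusted p = 0.479, 0.799 and 0.575). In the library left out, Fam25c was at 3123 and Bcl7c at 1474, within or above the range of the other groups, and Lrit1 was at 96.98, between the pair that remained and the other groups.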

How the results depend on the processing

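With 12 libraries the interaction gave 0 genes, 6 without the trend and 46 with library weights, which gave Alb-R3 CCl4 replicate 1 the lowest weight (0.217) and Alb-Cre oil replicate 1 the highest (3.66). Leaving out 1 library gave 0 to 3 genes: leaving out Alb-R3 CCl4 replicate 1 gave the 3, and replicate 3 of Alb-Cre oil or of Alb-R3 CCl4 gave 2 each. With 11 libraries the 3 genes became 1 without the trend, 0 without the filter (more genes tested), 1 with FPKM, 82 with weights and 6 at a threshold of 0.1. Leaving out another library gave 2 to 10: with replicate 3 of a group left out, 10 for Alb-Cre oil, 7 for Alb-R3 oil, 5 for Alb-Cre CCl4 and 6 for Alb-R3 CCl4, where the lone library of its group is assumed to vary like the others. CCl4 in Alb-Cre gave 900 genes, 2703 with weights, 1382 at 0.1, and 525 (without Alb-Cre CCl4 replicate 2) to 1431 (without Alb-R3 CCl4 replicate 1) when 1 library was left out. Leaving out Alb-Cre oil replicate 1 gave 576, and Alb-Cre CCl4 replicate 3 gave 590. In Alb-R3 the 3598 genes became 2137 to 3782, with 2137 and 2325 without Alb-R3 oil replicates 1 and 2. The cause of these shifts was not tested.

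The split of calls moved with the scaling: 1229 up and 107 down in Alb-Cre and 3120 up and 590 down in Alb-R3 with FPKM, where the median of all genes was 0.215 and 0.232 (0.0171 and 0.00159 as reported), and 1723 up and 1640 down in Alb-R3 with quantile normalization. Klb changed sign, from -0.25 to 0.54 with weights, 0.12 if Alb-Cre oil replicate 3 was left out and 0.60 if Alb-R3 CCl4 replicate 1 was. Its range over the libraries left out was -0.81 to 0.60. With the replicate block the interaction gave 0 genes (12 libraries) and 3 (11), and CCl4 gave 713 in Alb-Cre and 3091 in Alb-R3. The number is only a number here: 4 of 12 libraries correlated best with their own. Normalized counts do not give the depth in whole reads, so no counting interval was computed.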

Other observations

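With library weights 46 genes passed the interaction test with 12 libraries, and 43 of them also with 11. Without weights, 45 of the 46 had an unadjusted p under 0.05 with the same sign, beside 7.49% of all genes in either direction. Both counts come from the libraries that selected the 46, so they are no independent support. Of the 46, 6 (13%) lay on chromosome 19, which holds 3.37% of the tested genes, 6 (13%) on chromosome 7 (8.31%) and 4 (8.7%) on chromosome 14 (3.53%). Of the 82 with 11 libraries the shares were 8.54% on chromosome 19, 4.88% on chromosome 7 and 7.32% on chromosome 14. These shares were noticed in the results and have no test.

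On chromosome 19 the named ones were Loxl4, Cwf19l1, Sfxn2 and Col17a1. Loxl4, a lysyl oxidase that cross-links collagen, had normalized counts of 29.4, 29.17 and 0 in Alb-Cre oil, 1.094, 2.267 and 20.1 in Alb-R3 oil, 21.39, 44.61 and 8.312 in Alb-Cre CCl4 and 703.6, 301 and 226 in Alb-R3 CCl4. The last group lay far above the others, and the interaction was 4.99 ± 1.69 without weights (limma adjusted p = 0.505). Col17a1, a transmembrane collagen, had 0, 0.9722 and 5.967 in Alb-Cre oil, 16.41, 11.33 and 7.096 in Alb-R3 oil, 17.5, 14.87 and 19.12 in Alb-Cre CCl4 and 15.47, 0.7325 and 3.206 in Alb-R3 CCl4.

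On chromosome 14, Rpgrip1, a protein of the photoreceptor cilium, was at 10.5, 4.861 and 17.91 in Alb-Cre oil and 159.6, 151.9 and 112.1 in Alb-R3 oil. After CCl4 it was at 19.46, 10.29 and 13.3 in Alb-Cre, with 93.91, 17.58 and 22.44 in Alb-R3. In Col17a1, Rpgrip1, Lrit1, Lrit2 and Fam25c, Alb-R3 CCl4 replicate 1 was nearer on the log2 scale to the mean of the Alb-R3 oil libraries than replicates 2 and 3 were, a description of genes picked for it.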
